A study of Mus musculus with 28 samples.

Results

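The comparison described here set luminal cells against stromal cells that carried the same lineage label, green fluorescent protein (GFP), in the mammary gland of untreated mice. Its members were the 8 libraries of 4 untreated mice whose sample names mark GFP-labelled cells of the luminal or the stromal gate, 4 of each, out of 28 libraries from 7 mice. The mice were adult *PdgfrαCre R26mTmG* females. In these animals a constitutive Cre driven by *Pdgfrα* removes a tdTomato cassette and turns on GFP, so a GFP+ cell is one that expressed Cre at any time or that descends from such a cell, and the label does not say when. The remaining cells keep tdTomato. All cells were negative for the blood, endothelial and erythroid surface antigens used for depletion (CD45, CD31 and Ter119). Stromal cells were those without CD49f and EpCAM, luminal cells those with low CD49f and with EpCAM. RNA of each sorted population of 1 mouse gave 1 library, and both GFP+ libraries of a mouse were compared within that mouse. The other 20 libraries hold the tdTomato+ cells of the same mice and the 4 populations of 3 mice given estrogen plus progesterone (E+P), and served for a test of how far the difference depended on label or treatment.

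The mammary epithelium is a bilayer of luminal cells, which face the duct and make milk, and contractile basal cells, which rest on a basement membrane. Around it lies a stroma of fibroblasts, adipocytes and their PDGFRα+ progenitors, which lay down collagen and send growth factors to the epithelium. Epithelial cells are held in sheets by cadherin, claudin and desmosome junctions and are polarised, while mesenchymal cells lack these junctions, have vimentin filaments and move singly. Transcription factors of the Snail, Twist and Zeb families silence junction genes in mesenchymal cells, many through the E-box sequence CAGGTG, which reads as CACCTG on the other strand, and Grainyhead-like, Ovol and Esrp proteins keep up the epithelial state.

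Each library had between 8623383 and 18904196 counts on genes. Values are CPM, the counts of a gene relative to the total of its library scaled with TMM factors, and are given in the order of mice 1, 2, 3 and 4, log2 fold changes are luminal over stromal with their standard error (SE), and adjusted p values come from edgeR's quasi-likelihood test over 19569 genes with the mouse as a block. The threshold was 0.01. Since the libraries are bulk RNA, fewer cells of a type and less RNA per cell cannot be told apart. Libraries of the same lineage correlated at a Pearson's r of 0.962 to 0.973 over log2 CPM and libraries of different lineages at 0.704 to 0.738, and the first principal component held 83.6% of the variance and separated the lineages. Mitochondrial genes took 6.23% to 9.35% of counts in luminal and 4.44% to 4.92% in stromal libraries, and the part of this in the results was not tested.

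The labels were checked first with the genes behind the gates and the Cre. The difference in the gate antigens is fixed by the sort and is a description. *Pdgfra* was not part of the gates, and both groups carry the label of its Cre. *Epcam* (chr17:87635979-87651129, GRCm38), the luminal gate antigen, was at 975, 843, 768 and 852 CPM in luminal and 2.35, 10.9, 2.74 and 0.734 CPM in stromal libraries. *Itga6*, which encodes CD49f, was at 292, 197, 245 and 283 CPM and 1.97, 4.89, 0.549 and 1.38 CPM. *Pdgfra* (chr5:75152292-75198215), the gene behind the Cre, was at 12.7, 25.9, 14.9 and 9.36 CPM in luminal and 1994, 1823, 2082 and 2214 CPM in stromal libraries, so that the luminal cells of a mouse had between 0.423% and 1.42% of the level of its stromal cells. No library went against its label. *Ptprc*, which encodes CD45, was at or below 0.682 CPM and *Pecam1*, which encodes CD31, at or below 3.70 CPM in all 8 libraries.

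Of the 19569 genes tested, 8057 (41.2%) differed between the lineages, 3653 (18.7%) being higher in luminal and 4404 (22.5%) in stromal cells. By at least 4-fold, 1765 genes (9.02%) were higher in luminal and 2450 (12.5%) in stromal cells. With library size in place of TMM factors the split was 6327 luminal and 3134 stromal, where the median log2 fold change over all genes moved from 0.02 to 0.46. The median of each of the 30 gene lists described below kept its sign under library size and under DESeq2 size factors as the scale. The lists hold 654 different genes, of which 617 had enough reads to be tested. The counts of each list stand against the shares over all genes, 18.7% luminal and 22.5% stromal. Junction, keratin and epithelial factor lists lay at the luminal end, collagens and matrix proteins at the stromal end, and the signal families and the basement membrane list were split between them.

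**Figure D1:**
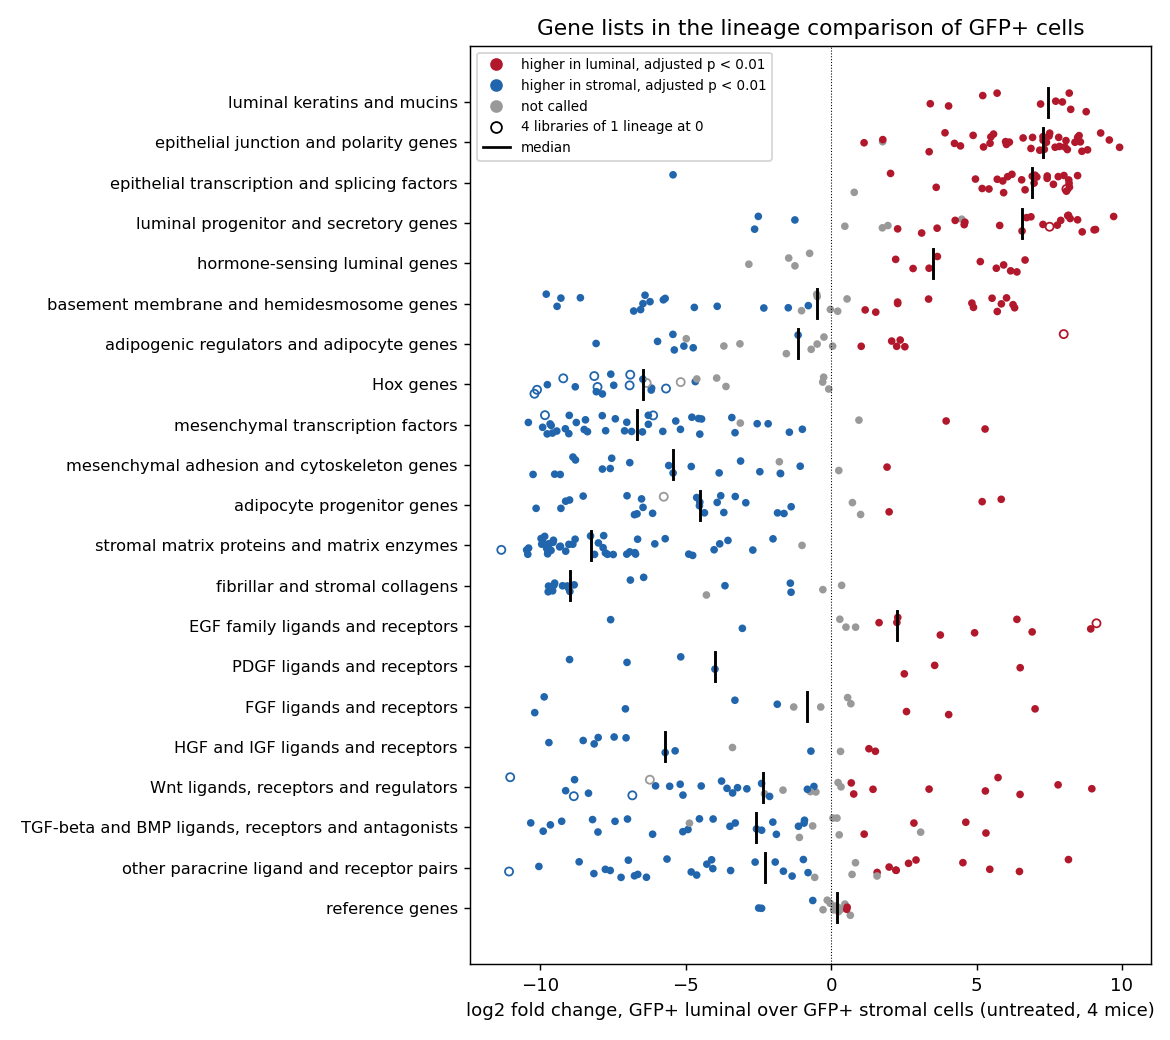
Log2 fold change of each gene of 21 lists, GFP+ luminal over GFP+ stromal cells of 4 untreated mice, with 1 point a gene and a black bar at the list's median. Red and blue points passed an adjusted p of 0.01, grey points did not, and open points had no read in the 4 libraries of a lineage, so that their position is not a measured size. Genes with 3 or fewer reads in each lineage are not drawn. Keratin and junction medians lay at 7.46 and 7.29, the collagen median at -8.98, and the reference genes around 0.19.

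Epithelial junction genes were nearly all higher in luminal than in stromal GFP+ cells. Of 40 junction and polarity genes tested, 39 were higher in luminal cells (18.7% of all genes were) and 0 in stromal cells, with a median log2 fold change of 7.29 against 0.02 over all genes. The exception was *Cdh3*, the P-cadherin of basal cells, at 0.571, 0.403, 0.800 and 0.629 CPM in luminal and 0, 0.465, 0.183 and 0.184 CPM in stromal libraries (log2 fold change 1.77 ± 0.94, adjusted p = 0.124).

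*Cdh1*, the E-cadherin that joins epithelial cells, was at 1114, 806, 797 and 873 CPM in luminal and at 0.530, 8.92, 2.38 and 1.28 CPM in stromal libraries. The groups were far apart, with a log2 fold change of 8.48 ± 0.97 (adjusted p = 1.03e-06). The highest stromal value was that of mouse 2, as it was for 62 of 78 genes with stromal reads in the junction, keratin and epithelial factor lists. Without this mouse 39 junction genes were again called luminal, with a median of 8.08. Among the claudins, which seal tight junctions, *Cldn4* was at 378, 217, 296 and 281 CPM against 0.757, 4.11, 1.22 and 0.367 CPM (7.85 ± 1.02, adjusted p = 4.72e-06) and *Cldn7* at 60.9, 42.9, 50.4 and 63.4 CPM against 0.0757, 0.388, 0 and 0 CPM (8.82 ± 0.66, adjusted p = 2.1e-09). *Crb3*, of the apical polarity complex, had 21.3, 13.5, 15.2 and 13.8 CPM in luminal cells, and only 1 of 4 stromal libraries had a read. *Lsr*, which builds junctions where 3 cells meet, was at 56.5, 57.5, 69.0 and 57.2 CPM against 0.151, 1.09, 0.183 and 0.367 CPM, and *Ap1m2*, an adaptor subunit for basolateral sorting, at 31.1, 25.4, 33.5 and 33.0 CPM against 0.0757, 0.543, 0.0610 and 0 CPM. The smallest called difference was that of *Tjp1*, the scaffold ZO-1, which fibroblasts also use: it was at 313, 282, 302 and 321 CPM in luminal and 149.4, 127, 133 and 146 CPM in stromal libraries (1.13 ± 0.10, adjusted p = 3.89e-09). *Ppl* (periplakin) was likewise present on both sides, at 451, 344, 348 and 502 CPM against 97.1, 153, 86.4 and 127 CPM. Stromal cells of a mouse thus had between 5.08% and 7.45% of the summed CPM of the list in its luminal cells, but for *Cdh1* alone between 0.0476% and 1.11%.

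The promoters of these junction genes were read for the E-box CAGGTG, the sequence that Snail and Zeb proteins bind, in the 300 bases from 250 before to 50 after the start site in RefSeq (GRCm38.p6). Promoters were found for 22 of the 41 listed genes, 29 in all, and 21 of them (72.4%) held the motif on either strand, 12 of them at least 2 times. Of all 32851 promoters there 20.2% held it, among genes at least 4-fold higher in luminal cells 34.2% of 1513, among those at least 4-fold higher in stromal cells 16.3% of 2075, and among tested genes without a call 17.8% of 8204. The palindromic E-boxes CAGCTG and CACGTG, which share no full match with it, were in 17.1% and 7.01% of the luminal-higher, 20% and 7.08% of the stromal-higher and 15.6% and 8.996% of the uncalled promoters, at median GC contents of 59.0%, 58.0% and 59.2%. Keratin and mucin promoters held CAGGTG in 6 of 7 cases, mesenchymal transcription factors in 3 of 29 (10.3%) and matrix genes in 5 of 38 (13.2%). These matches are letters in a window and show no binding. The 3 promoters of the list with the most matches and those of the claudins above are printed 5′ to 3′ on the strand of the gene, with both orientations of the motif in capitals. They were chosen after the matches were seen.
*Ap1m2* promoter, chr9:21312284-21312583, reverse strand: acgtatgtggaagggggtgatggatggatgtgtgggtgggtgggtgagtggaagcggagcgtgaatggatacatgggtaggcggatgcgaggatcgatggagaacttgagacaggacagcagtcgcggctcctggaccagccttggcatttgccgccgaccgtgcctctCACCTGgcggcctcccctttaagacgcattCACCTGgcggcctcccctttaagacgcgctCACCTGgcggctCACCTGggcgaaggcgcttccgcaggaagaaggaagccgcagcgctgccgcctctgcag
*Crb3* promoter, chr17:57061951-57062250, forward strand: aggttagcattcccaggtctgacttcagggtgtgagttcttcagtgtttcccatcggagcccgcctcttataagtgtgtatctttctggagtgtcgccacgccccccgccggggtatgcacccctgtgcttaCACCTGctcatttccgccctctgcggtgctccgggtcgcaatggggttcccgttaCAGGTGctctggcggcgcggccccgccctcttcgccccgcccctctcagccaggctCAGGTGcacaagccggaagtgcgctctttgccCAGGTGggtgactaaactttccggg
*Lsr* promoter, chr7:30973420-30973719, reverse strand: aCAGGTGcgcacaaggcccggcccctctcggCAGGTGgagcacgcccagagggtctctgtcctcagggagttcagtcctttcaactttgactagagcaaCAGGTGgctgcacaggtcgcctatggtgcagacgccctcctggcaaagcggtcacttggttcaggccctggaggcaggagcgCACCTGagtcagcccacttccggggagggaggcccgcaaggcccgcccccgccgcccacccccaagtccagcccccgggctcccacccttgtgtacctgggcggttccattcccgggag
*Cldn4* promoter, chr5:134946885-134947184, reverse strand: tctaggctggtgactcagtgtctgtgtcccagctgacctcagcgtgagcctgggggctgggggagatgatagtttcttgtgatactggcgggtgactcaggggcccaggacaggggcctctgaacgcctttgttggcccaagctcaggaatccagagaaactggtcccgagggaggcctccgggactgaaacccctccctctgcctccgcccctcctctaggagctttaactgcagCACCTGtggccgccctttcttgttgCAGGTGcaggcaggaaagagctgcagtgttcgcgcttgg
*Cldn7* promoter, chr11:69965171-69965470, forward strand: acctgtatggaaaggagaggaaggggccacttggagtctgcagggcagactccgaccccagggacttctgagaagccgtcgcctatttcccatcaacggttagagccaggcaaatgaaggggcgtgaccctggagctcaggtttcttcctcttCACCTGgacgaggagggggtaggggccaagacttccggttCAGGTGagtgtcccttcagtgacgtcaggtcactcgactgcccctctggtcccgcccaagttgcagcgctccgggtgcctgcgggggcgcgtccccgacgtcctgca

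In *Ap1m2* the 4 motifs lay at -81, -51, -21 and -9 bases from the start site, counted along the gene. In *Crb3* they lay at -118, -63, -7 and +26, in *Lsr* at -249, -219, -151 and -69, in *Cldn4* at -14 and +12 and in *Cldn7* at -97 and -57.

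Transcription factors known for the mesenchymal and the epithelial state lay mostly on opposite sides. Of 42 mesenchymal transcription factors tested, 38 were higher in stromal cells (22.5% of all genes were) and 2 in luminal cells, with a median of -6.68. Of 29 epithelial transcription and splicing factors, 27 were higher in luminal and 1 in stromal cells, with a median of 6.92, or 6.67 with the gene that had no stromal read set at its bound.

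*Snai2* (Slug), a repressor of E-cadherin, was at 0, 0, 0.114 and 0.236 CPM in luminal and 28.6, 48.2, 33.2 and 27.4 CPM in stromal libraries (log2 fold change -8.45 ± 0.47, adjusted p = 7.13e-12). *Snai1* was at 0.571, 0.705, 0.114 and 0.708 CPM against 13.6, 17.6, 11.3 and 12.8 CPM (-4.79 ± 0.35, adjusted p = 4.69e-10). *Twist1*, a factor of the mesoderm, had reads in 2 of 4 luminal libraries, at 0.127, 0, 0 and 0.0787 CPM, and 58.5, 93.5, 91.2 and 91.6 CPM in stroma (-10.41 ± 0.47, adjusted p = 2.26e-12). The zinc-finger repressors followed: *Zeb1* was at 1.39, 2.22, 0.629 and 5.74 CPM against 398, 415, 358 and 344 CPM (-7.42 ± 0.57, adjusted p = 6.54e-09) and *Zeb2* at 1.20, 2.52, 0.400 and 4.80 CPM against 805, 745, 673 and 749 CPM (-8.49 ± 0.89, adjusted p = 3.3e-07). Both were highest, among luminal libraries, in that of mouse 4. *Prrx1*, a homeobox factor of limb and body-wall mesenchyme, was at 0.951, 0.403, 0.400 and 1.10 CPM against 516, 581, 480.4 and 538 CPM. No luminal value of these 6 genes reached a stromal one.

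Further members of the mesenchymal list were high in stroma. *Tbx15*, a factor of limb and skin development, was at 96.3, 131, 110.6 and 95.9 CPM in stroma and 0.507, 1.01, 1.26 and 0.551 CPM in luminal cells, *Osr2* at 47.6, 71.0, 40.9 and 38.9 CPM and 0, 0.302, 0 and 0 CPM, and *Shox2* at 47.1, 57.8, 58.1 and 39.4 CPM and 0, 0.403, 0 and 0.0787 CPM. The early B-cell factors *Ebf1* and *Ebf2*, which mark adipocyte precursors, were at 433, 421, 324 and 317 CPM and 162, 158, 96.3 and 110.97 CPM in stroma and at no more than 1.18 and 0.472 CPM in luminal cells. *Prrx2* had no read in any luminal library and was at least 125-fold higher in stroma, counted against a floor of 3 reads over the 4 luminal libraries.

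Against the direction of their list, *Foxc1* was at 41.6, 47.7, 45.8 and 77.9 CPM in luminal and 1.82, 4.73, 3.90 and 3.03 CPM in stromal libraries (3.96 ± 0.38, adjusted p = 3.94e-08), and *Scx*, a tendon factor, at 1.46, 2.82, 2.51 and 3.15 CPM against 0, 0, 0.0610 and 0.184 CPM (5.30 ± 0.84, adjusted p = 2.03e-05). *Foxc1* is a forkhead factor with roles in mesoderm and in glandular epithelia. *Foxc2* and *Mkx* did not pass the test, but *Foxc2* did with limma-voom and without the filter on low counts (adjusted p = 0.00951 and 0.00708).

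On the epithelial side, *Grhl2*, which activates *Cdh1* and claudin genes, was at 116, 130.4, 122 and 148 CPM in luminal and 0, 3.57, 0.122 and 0.826 CPM in stromal libraries (log2 fold change 7.07 ± 0.67, adjusted p = 9.48e-08). *Ovol1*, which represses *Zeb1*, was at 22.7, 15.2, 21.7 and 16.6 CPM against 0.0757, 0.388, 0.732 and 0 CPM. *Esrp1* and *Esrp2*, which set epithelial splicing, were at 145, 162, 146 and 165 CPM and 60.9, 52.9, 82.0 and 75.3 CPM in luminal cells against 0.454, 4.42, 0.549 and 0.367 CPM and 0, 0.931, 0.0610 and 0 CPM in stromal cells. The ETS factors of the alveolar lineage were similarly divided: *Elf5* was at 183, 167, 161 and 281 CPM against 0.0757, 1.24, 0.488 and 0.367 CPM (8.48 ± 0.65, adjusted p = 2.14e-08) and *Ehf* at 494, 638, 471 and 748 CPM against 0.530, 8.06, 0.244 and 1.74 CPM. *Gata3*, needed for luminal fate, was at 250.2, 275, 321 and 271 CPM against 2.27, 4.65, 4.57 and 1.38 CPM. *Trps1*, a GATA-type repressor, was at 1258, 1569.6, 1259 and 1665 CPM against 8.48, 21.9, 10.6 and 6.70 CPM. For all of these the lowest luminal value was above the highest stromal value.

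*Cbfa2t3*, a corepressor, went the other way, at 0, 0.806, 0.400 and 1.42 CPM in luminal and 24.8, 30.3, 22.8 and 23.1 CPM in stromal libraries (-5.44 ± 0.62, adjusted p = 6.25e-07). *Tbx3*, which both mammary mesenchyme and hormone-sensing cells use, overlapped between the lineages at 75.0, 64.7, 128 and 32.8 CPM and 24.0, 63.5, 38.5 and 42.7 CPM (adjusted p = 0.0207, but 0.00741 and 0.00216 without mouse 2 or 4). *Klf5* kept a stromal level of 9.997, 15.4, 13.5 and 13.5 CPM beside 151, 179, 149.1 and 151 CPM in luminal cells.

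**Figure D2:**
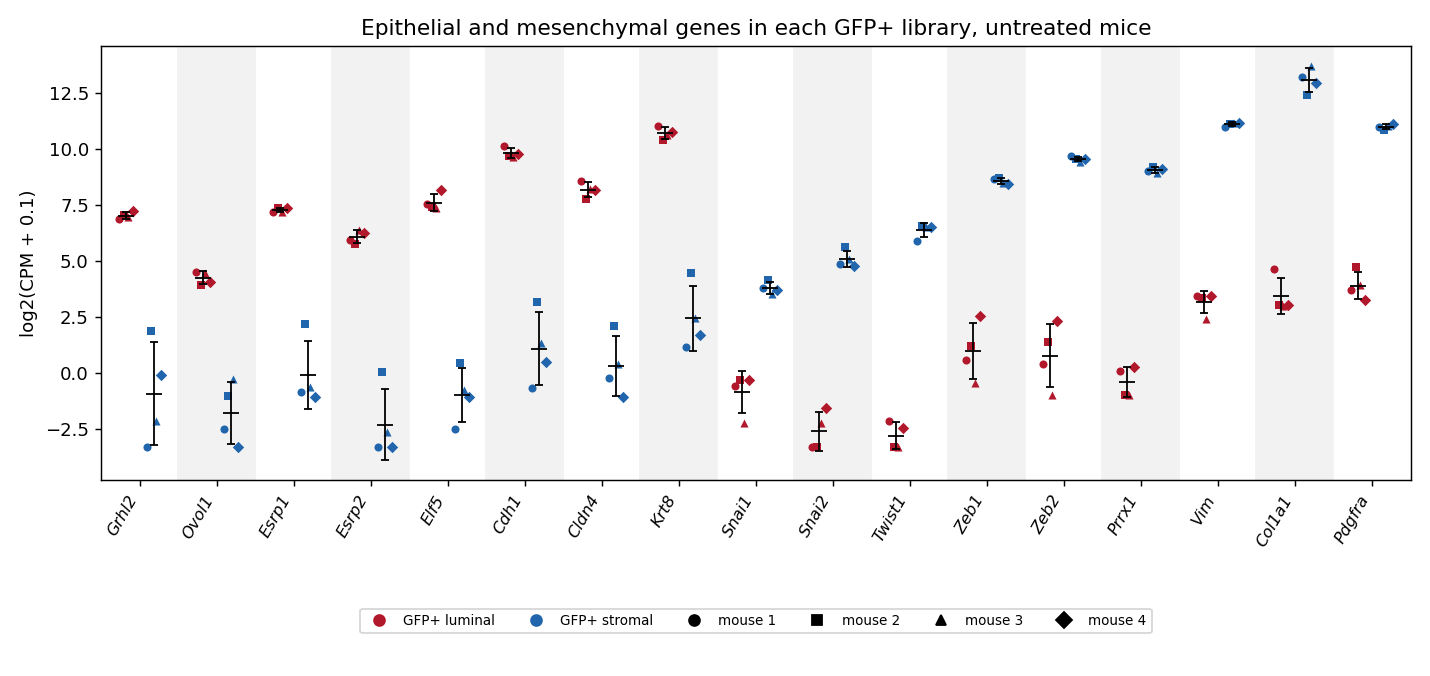
Level of 17 epithelial and mesenchymal genes in each GFP+ library on a log2(CPM + 0.1) scale, with red points for luminal and blue points for stromal libraries, a marker shape for each mouse, and black bars for the mean ± SD of the 4 libraries. The colours exchange places between *Krt8* and *Snai1*: epithelial genes are high in the 4 luminal libraries, mesenchymal genes in the 4 stromal libraries, and no gene shows an overlap.

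All 10 keratin and mucin genes were higher in luminal cells, with a median of 7.46. *Krt8* and *Krt18*, the paired simple-epithelium keratins, were at 2072, 1335, 1555 and 1718 CPM and 2315, 1986, 1901 and 2076 CPM in luminal libraries. In stromal libraries they were at 2.12, 21.6, 5.31 and 3.12 CPM and 3.79, 23.8, 7.62 and 2.48 CPM, so that mouse 2 again had the highest values. *Muc1*, the apical mucin, was at 95.6, 78.0, 77.3 and 157 CPM against 2.73, 3.10, 1.89 and 2.57 CPM (5.21 ± 0.47, adjusted p = 2.38e-08). *Muc4*, a membrane mucin, was at 115, 51.9, 148 and 1268 CPM in luminal and 0, 3.80, 0 and 1.56 CPM in stromal cells (7.20 ± 1.04, adjusted p = 1.5e-05), with the luminal library of mouse 4 far above the others.

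Collagen and matrix genes, which encode the products of fibroblasts, were nearly all higher in stromal GFP+ cells. Of 19 fibrillar and stromal collagens, 16 were higher in stroma and 0 in luminal cells (22.5% and 18.7% of all genes were), with a median of -8.98. Of 45 matrix proteins and matrix enzymes, 44 were higher in stroma and 0 in luminal cells, with a median of -8.27. *Col1a1*, the main chain of collagen I, was at 9324, 5448, 13297 and 7845 CPM in stromal and 24.3, 8.06, 7.83 and 8.02 CPM in luminal libraries (log2 fold change -9.51 ± 0.73, adjusted p = 6.77e-09). *Col3a1* was at 19108, 10062, 27032 and 11109 CPM against 38.7, 16.8, 15.7 and 10.5 CPM (-9.58 ± 0.89, adjusted p = 7.33e-08). Both collagens were highest in the stroma of mouse 3 and lowest in that of mouse 2.

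The proteoglycan *Dcn* (decorin) was at 6263, 6818, 6432 and 5547 CPM in stromal and 14.7, 10.6, 3.54 and 2.60 CPM in luminal libraries (-9.78 ± 0.67, adjusted p = 1.46e-09). *Fbn1*, the microfibril protein, was at 3933, 3295, 4707 and 2781 CPM against 6.59, 3.83, 0.857 and 2.91 CPM. *Lox*, which crosslinks collagen, was at 271, 293, 253 and 491 CPM against 0.634, 0.201, 0.0572 and 0 CPM (-10.40 ± 0.62, adjusted p = 9.28e-10). Among matrix proteases, *Mmp2* and *Mmp3* were at 2186, 1528, 1886 and 2469 CPM and 1007, 821, 1116 and 2253 CPM in stroma and at most at 4.69 and 1.39 CPM in luminal cells. *Mmp14*, which activates MMP2 at the cell surface, was more evenly present, at 1089, 906, 1030.0 and 1042 CPM against 89.5, 66.3, 74.0 and 56.5 CPM (-3.83 ± 0.14, adjusted p = 3.07e-14). *Timp3*, an inhibitor of such proteases, was at 1252, 942, 919 and 1107 CPM in stroma and 265, 359, 159.9 and 263 CPM in luminal cells (-1.998 ± 0.38, adjusted p = 0.000251). *Prelp* alone of the 45 did not pass, at 296, 362, 285 and 270.2 CPM and 155, 219.6, 102 and 137 CPM (adjusted p = 0.0265), though it did with limma-voom and in a fit of the 8 libraries alone (0.00178 and 0.000976). Of the collagens, *Col8a1*, *Col8a2* and *Col26a1* did not pass (*Col26a1* did with DESeq2, adjusted p = 0.00151), and *Col8a1* overlapped at 17.4, 2.92, 19.1 and 16.2 CPM in luminal and 12.4, 16.1, 8.72 and 1.56 CPM in stromal libraries.

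Of 21 mesenchymal adhesion and cytoskeleton genes, 17 were higher in stroma and 1 in luminal cells, with a median of -5.43. *Vim* (vimentin) was at 2025, 2192, 2232 and 2289.7 CPM in stromal and 10.5, 10.1, 5.201 and 10.6 CPM in luminal libraries (-7.87 ± 0.55, adjusted p = 1.86e-09). *Cdh11*, the cadherin of fibroblasts, was at 412, 352, 455 and 226 CPM against 1.58, 0.705, 0.629 and 0.472 CPM, and *Thy1* at 229, 254, 341 and 219 CPM against 0.444, 0.201, 0.229 and 0.551 CPM. *Cdh2* (N-cadherin), the usual counterpart of E-cadherin, was low even in stroma, at 2.04, 5.196, 4.15 and 2.66 CPM against 0, 0.201, 0.400 and 0.315 CPM (-3.85 ± 0.73, adjusted p = 0.000194). The gene higher in luminal cells was *Ncam1*, a neural adhesion molecule, at 36.2, 55.0, 34.4 and 12.3 CPM against 5.83, 10.5, 11.8 and 6.15 CPM (1.92 ± 0.37, adjusted p = 0.000238). *Cd44*, a hyaluronan receptor often taken as mesenchymal, was at 294, 344, 145 and 308 CPM in luminal and 546, 426, 700.5 and 645 CPM in stromal cells (-1.06 ± 0.29, adjusted p = 0.00435). *S100a4*, *Itga9* and *Itga8* did not pass, but *Itga9* was called stromal with DESeq2, with limma-voom and without mouse 2 (adjusted p = 0.00186, 0.00114 and 0.00303). The call of *Cd44* was lost without mouse 1, 3 or 4 (adjusted p = 0.0101, 0.043 and 0.0204) and with library size as the scale (0.0788).

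As a share of the same mouse's stroma, luminal cells had on average 0.800% ± 0.432 (SD, n = 4) of *Pdgfra*, 0.192% ± 0.120 of *Pdgfrb*, 0.142% ± 0.0867 of *Col1a1*, 0.123% ± 0.0894 of *Dcn* and 0.419% ± 0.127 of *Vim*. In the reverse direction stromal cells had 0.495% ± 0.546 of *Epcam*, 0.560% ± 0.710 of *Krt8* and 0.400% ± 0.482 of *Cdh1*, where the SD rests on mouse 2, at 1.30%, 1.62% and 1.11%. Of these 5 stromal genes *Pdgfra* had the highest share in 3 of 4 mice, and *Vim* in mouse 4. Measured in the same way, *Gsn* had a higher mean share than *Pdgfra*, 1.13% ± 0.210. The means of *Lrp1*, *Cd34* and *Fbn1* were lower, at 0.540%, 0.164% and 0.102%. Whether such traces come from the labelled cells themselves or from other cells in the gate was not tested.

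Both lineages take part in the basement membrane, the sheet of laminin, collagen IV, nidogen and perlecan on which the epithelium sits, and its genes were split chain by chain. Of 35 basement membrane and hemidesmosome genes, 13 were higher in luminal and 16 in stromal cells, with a median of -0.49 that lay at -0.05 with library size as the scale. Laminins are trimers of an α, a β and a γ chain. Both *Lama3* and *Lamb3*, chains of the laminin that anchors hemidesmosomes, were luminal: *Lama3* was at 114, 129.8, 59.3 and 145 CPM against 0.606, 1.63, 1.65 and 1.74 CPM (log2 fold change 6.26 ± 0.43, adjusted p = 6.28e-10) and *Lamb3* at 38.4, 35.9, 31.9 and 27.2 CPM against 0.985, 1.24, 1.04 and 1.28 CPM (4.90 ± 0.50, adjusted p = 1.14e-07). *Lama5*, the α chain of laminin-511, was also luminal, at 348, 252, 520.1 and 273 CPM against 2.95, 12.2, 9.70 and 3.76 CPM. *Lama1* was low but luminal, at 2.54, 2.52, 4.63 and 6.37 CPM against 0.227, 0.388, 0.244 and 0.826 CPM. Its call was lost without mouse 1 (adjusted p = 0.011).

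The chains that pair with them were stromal. *Lamb1* was at 1496, 1174, 1630.3 and 1076 CPM in stromal and 14.9, 9.06, 22.5 and 13.1 CPM in luminal libraries (-6.55 ± 0.34, adjusted p = 1.66e-11), and *Lamc1*, the γ chain of most laminins, at 2282, 1904, 2319 and 1836 CPM against 78.7, 77.7, 85.2 and 78.8 CPM (-4.70 ± 0.19, adjusted p = 9.96e-14). *Lama2*, the muscle and mesenchymal α chain, was at 2856, 2463, 2921 and 2276 CPM against 7.10, 4.23, 1.71 and 2.52 CPM. *Lama4* was at 699, 712, 803 and 532 CPM against 43.0, 60.2, 37.6 and 37.8 CPM and *Lamc3* at 178, 176, 244 and 226 CPM against 0.254, 0.403, 0.114 and 0.236 CPM. The linkers followed: *Nid1* was at 3598, 2588, 3588 and 2468 CPM against 9.51, 5.04, 2.91 and 2.75 CPM and *Hspg2*, which encodes perlecan, at 2611, 2544, 3087 and 2677 CPM against 43.7, 41.3, 46.8 and 81.3 CPM.

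Collagen IV showed the same division by chain. *Col4a1* and *Col4a2*, the ubiquitous pair, were at 3491, 2944, 3843 and 3203 CPM and 1847, 1478, 2397 and 1651 CPM in stroma, and at 42.9, 54.7, 37.5 and 39.5 CPM and 20.6, 25.7, 15.8 and 20.5 CPM in luminal cells. *Col4a5* and *Col4a6*, which assemble together, were luminal: *Col4a6* was at 149.5, 179, 102 and 115 CPM against 1.74, 4.81, 2.32 and 1.19 CPM (5.85 ± 0.36, adjusted p = 6.82e-11) and *Col4a5* at 139.7, 160.0, 110.9 and 145 CPM against 73.8, 44.2, 52.6 and 31.2 CPM (1.54 ± 0.23, adjusted p = 1.54e-05). *Col4a3* and *Col4a4* were stromal, at 33.3, 30.9, 19.2 and 30.8 CPM and 44.9, 33.3, 22.1 and 31.3 CPM. *Col4a5* and *Col4a6* are neighbouring genes on the X chromosome read from a shared promoter region in opposite directions, as *Col4a1* and *Col4a2* are on chromosome 8 and *Col4a3* and *Col4a4* on chromosome 1, and each pair went to 1 lineage.

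Several integrin genes were luminal. *Itgb4*, the β4 integrin of hemidesmosomes, was at 113, 98.1, 132 and 116 CPM against 0.454, 2.79, 1.28 and 1.65 CPM (6.31 ± 0.49, adjusted p = 5.53e-09), *Itga3* at 70.8, 73.9, 67.2 and 61.8 CPM against 1.06, 1.71, 1.22 and 0.275 CPM and *Itgb6* at 49.9, 45.7, 34.7 and 47.1 CPM against 0.985, 1.55, 0.305 and 1.19 CPM. *Itgb1*, the shared β subunit, was higher in stroma by a small margin, at 479, 436, 513 and 454 CPM against 322, 277, 248 and 247 CPM (-0.78 ± 0.09, adjusted p = 4.7e-07). The hemidesmosome plakin *Dst* did not pass the test, at 1676, 1593, 1602 and 1365 CPM in luminal and 1421, 1199, 1358 and 1347 CPM in stromal libraries (0.23 ± 0.09, adjusted p = 0.0518, but 9.8e-06 with library size as the scale).

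**Figure D3:**
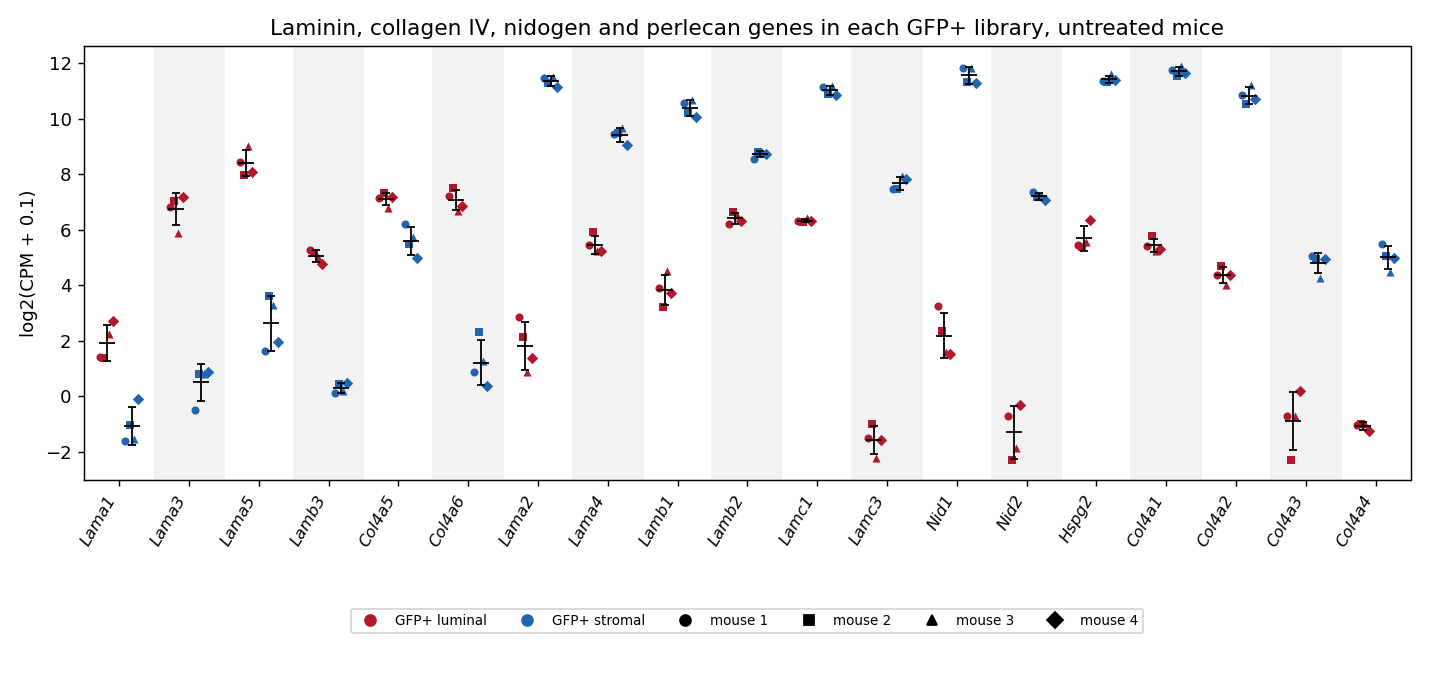
Level of 19 laminin, collagen IV, nidogen and perlecan genes in each GFP+ library, log2(CPM + 0.1), with red points for luminal, blue points for stromal libraries, a marker shape for each mouse, and black bars for the mean ± SD of 4 libraries. In the 6 genes on the left the luminal libraries lie above the stromal ones, in the 13 on the right below them.

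Most adipocyte progenitor genes were higher in stromal GFP+ cells. Of 29 adipocyte progenitor genes, 23 were higher in stroma and 3 in luminal cells, with a median of -4.52 (-4.36 with *Dlk1*, which had no luminal read, at its bound). *Pdgfrb* was at 599, 530.4, 659 and 706 CPM in stroma and 1.58, 0.504, 0.572 and 2.28 CPM in luminal cells (-8.99 ± 0.72, adjusted p = 1.15e-08). *Cd34*, a surface marker of these progenitors, was at 560.2, 727, 559 and 451 CPM against 0.888, 2.01, 0.743 and 0.393 CPM. *Dpp4* and *Pi16*, markers of an early progenitor state, were at 363, 381, 274 and 261 CPM and 592, 580.2, 548 and 513 CPM in stroma and at 2.92, 2.12, 3.83 and 6.14 CPM and 1.08, 0.906, 0.114 and 0.393 CPM in luminal cells. *Ly6a* (Sca-1) was less divided, at 136, 171, 163 and 110.0 CPM against 17.0, 5.64, 20.8 and 6.29 CPM (-3.69 ± 0.43, adjusted p = 1.05e-06). *Dlk1* (Pref-1) was at 0.833, 0, 0.610 and 0.184 CPM in stroma and did not pass the test (adjusted p = 0.018). It did pass without the mouse as a block (adjusted p = 0.00481), with DESeq2 (0.00483), with limma-voom (0.00713) and without the filter on low counts (0.00251). The list members higher in luminal cells were *Cd24a*, *Sox9* and *Gas6*, of which *Cd24a* is an epithelial surface antigen as well, at 253, 139.9, 354 and 222 CPM against 2.04, 7.75, 7.08 and 2.75 CPM.

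Of 21 adipogenic regulators and adipocyte genes, 7 were higher in stroma, 6 in luminal cells and 8 in neither, with a median of -1.14. Over all genes 22.5% were higher in stroma and 18.7% in luminal cells. *Pparg*, the master regulator of adipogenesis, was at 40.3, 40.4, 24.7 and 34.6 CPM in stroma and 0.761, 2.12, 0.800 and 0.708 CPM in luminal cells (-5.06 ± 0.38, adjusted p = 6.96e-10). *Lpl* and *Fabp4* were at 1242, 1019, 1314 and 779 CPM and 148, 74.6, 49.5 and 34.7 CPM against 3.55, 3.12, 4.06 and 5.82 CPM and 0.761, 1.11, 1.26 and 1.42 CPM. *Plin1*, a lipid droplet protein, was at 0.379, 2.87, 0.549 and 0.184 CPM in stroma, and *Adipoq*, *Lep*, *Retn*, *Cidec* and *Aqp7* had too few reads to be tested, *Adipoq* with 25 reads over the 4 stromal and 2 over the 4 luminal libraries. The genes higher in luminal cells handle lipid in other tissues too: *Pnpla2*, a triglyceride lipase, was at 67.6, 77.9, 71.6 and 73.0 CPM against 15.6, 19.9, 16.4 and 16.7 CPM (2.08 ± 0.23, adjusted p = 2.72e-07), and *Lipe* was at 40.7, 23.6, 44.2 and 26.2 CPM against 4.47, 9.23, 5.67 and 3.95 CPM. *Fabp5*, *Cidea*, *Dgat2* and *Agpat2* were the others. Of these, *Dgat2* was not called without mouse 1 or 3 (adjusted p = 0.0226 and 0.0155) and *Agpat2* without mouse 2 (0.0149). *Cebpb* and *Cebpd* overlapped, *Cebpd* at 192, 549, 256 and 299.6 CPM and 207, 412, 263 and 339 CPM.

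Most luminal progenitor and secretory genes were higher in luminal cells. Of 29 such genes, 22 were higher in luminal and 3 in stromal cells, with a median of 6.57 (5.80 with *Csn1s2a*, which had no stromal read, at its bound). *Kit*, the receptor that marks luminal progenitors, was at 762, 1155, 791 and 916 CPM in luminal and 0.833, 8.92, 2.13 and 2.20 CPM in stromal libraries (8.16 ± 0.64, adjusted p = 8.41e-09). *Aldh1a3*, another progenitor marker, was at 823, 742, 322 and 520.3 CPM against 50.5, 45.8, 63.7 and 33.0 CPM (3.65 ± 0.52, adjusted p = 1.49e-05), the stromal level being well above 0. *Cd14* was at 114, 213, 132 and 153 CPM against 0.682, 2.40, 0.854 and 2.02 CPM, and *Csn3* (κ-casein) at 782, 894, 534 and 752 CPM against 0.0757, 3.72, 0.549 and 1.38 CPM. Other milk genes were high in 1 mouse: *Csn2* (β-casein) was at 0.127, 0, 0 and 84.3 CPM and *Csn1s1* at 1.65, 0.504, 1.89 and 138.4 CPM in luminal libraries, nearly all of it in mouse 4, and neither passed the test (adjusted p = 0.0828 and 0.289). Without mouse 4 the log2 fold change of *Csn2* was -1.71. Without mouse 2 both were called luminal (adjusted p = 9.68e-07 and 3.18e-09). *Csn1s2a*, which counts among the 22 luminal genes, lost its call without mouse 4 (adjusted p = 0.353). *Itgb3*, *Xdh* and *Lbp* were higher in stroma, *Itgb3* at 165, 131, 197 and 152 CPM against 27.5, 26.4, 14.3 and 66.9 CPM and *Xdh*, xanthine dehydrogenase, at 479, 503, 482 and 576 CPM against 139, 263, 145 and 392 CPM (-1.25 ± 0.31, adjusted p = 0.00252, and 0.0199 without the block). Only *Lbp* of these kept its call without mouse 1 or without mouse 3.

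Hormone-sensing genes differed more between mice than any other list with at least 10 genes at 10 CPM or more. Of 14, 10 were higher in luminal and 0 in stromal cells, with a median of 3.51. *Esr1*, the estrogen receptor, did not pass, at 93.9, 48.5, 98.5 and 24.5 CPM in luminal and 126, 136, 92.8 and 70.9 CPM in stromal libraries (-0.74 ± 0.27, adjusted p = 0.0263), and the groups overlapped. Without mouse 3 its stromal excess passed (adjusted p = 0.00388). *Pgr*, the progesterone receptor, was at 85.9, 47.3, 257 and 20.5 CPM against 8.10, 18.1, 20.7 and 4.50 CPM (2.82 ± 0.59, adjusted p = 0.000635), where the luminal library of mouse 4 lay below the highest stromal one. *Prlr*, the prolactin receptor, was at 769.9, 276, 1218 and 182 CPM against 10.1, 25.7, 13.2 and 2.48 CPM, and *Areg* (amphiregulin), which relays estrogen to neighbouring cells, at 112, 18.6, 143 and 14.6 CPM against 0.530, 0.543, 1.71 and 0.367 CPM. In each of these the luminal libraries of mice 1 and 3 were above those of mice 2 and 4. The summed CPM of the list in luminal libraries was 1991, 698, 3019 and 432 CPM, and the median SD of its members between luminal libraries was 1.26 on the log2 scale, against 0.196 over 8260 genes with a mean of at least 10 CPM there. The order of the mice in other luminal lists was not the same: the progenitor list summed to 9299, 8786, 7928 and 9382 CPM.

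Proliferation genes also varied by mouse. Of 21, 12 were higher in luminal and 0 in stromal cells, and their sum was 205, 227, 658 and 434 CPM in luminal and 105, 144, 126 and 112 CPM in stromal libraries. *Mki67* was at 40.9, 54.6, 257 and 174 CPM against 1.36, 10.8, 5.49 and 2.66 CPM (4.83 ± 0.58, adjusted p = 1.88e-06), highest in mice 3 and 4. Without mouse 3, 8 of the 21 were called. The replication clamp *Pcna* was not called, at 24.8, 22.2, 32.1 and 24.9 CPM against 26.4, 36.2, 32.1 and 31.3 CPM (-0.29 ± 0.15, adjusted p = 0.116).

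The Hox genes, which record position along the body axis, were higher in stroma where they were called. Of 27 tested, 18 were higher in stroma and 0 in luminal cells. The median of the 27 was -6.47, or -5.07 with the 10 genes that had stromal but no luminal reads at their bounds. All 9 tested genes of the *Hoxa* cluster and 6 of 7 of the *Hoxc* cluster were higher in stroma, but only 2 of 7 of *Hoxb* and 1 of 4 of *Hoxd*. *Hoxd10*, counted among these 4, had no read in either lineage. *Hoxc8* was at 19.6, 30.7, 20.7 and 19.4 CPM in stroma and 0, 0, 0 and 0.0787 CPM in luminal cells (-9.76 ± 0.54, adjusted p = 7.18e-11), and *Hoxc10* had no luminal read and was at least 147-fold higher in stroma. Summed over a cluster, luminal libraries had 0.0572 to 0.315 CPM of *Hoxa*, 0 to 0.254 of *Hoxc* and 0 to 0.0572 of *Hoxd*, against 23.8 to 35.6, 68.7 to 88.4 and 4.33 to 6.43 in stroma.

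At the front end of the *Hoxb* cluster, *Hoxb2* was at 3.93, 4.33, 4.57 and 4.01 CPM in luminal and 3.41, 7.13, 4.51 and 3.12 CPM in stromal libraries (log2 fold change -0.08 ± 0.26, 95% interval -0.65 to 0.48), *Hoxb3* at 4.18, 5.64, 7.83 and 7.08 CPM and 5.23, 10.4, 6.83 and 7.62 CPM (-0.26 ± 0.35, 95% interval -0.99 to 0.48), and *Hoxb4* at 5.01, 4.73, 3.77 and 5.43 CPM and 4.62, 8.53, 3.11 and 7.99 CPM (-0.29 ± 0.32, 95% interval -0.98 to 0.40). The lineages overlapped in all of them, and the sign of all 3 turned with library size as the scale, to 0.37, 0.19 and 0.16. Further along the same cluster *Hoxb6* was at 2.58, 5.74, 4.03 and 3.49 CPM in stroma and 0.127, 0.302, 0.171 and 0 CPM in luminal cells (-4.67 ± 0.65, adjusted p = 6.39e-06). The counts of *Hoxb3* and its neighbours may share reads with antisense transcripts, since the strand setting of the counts is not given in the sources used here.

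Signals that pass between stroma and epithelium were tested by family, and ligands and receptors often lay on opposite sides. The count of each family stands beside 18.7% of all genes luminal and 22.5% stromal. For platelet-derived growth factors, 3 of 7 genes were luminal and 4 stromal. The ligands *Pdgfa*, *Pdgfb* and *Pdgfc* were luminal, *Pdgfa* at 15.1, 13.3, 13.1 and 12.7 CPM against 1.14, 1.16, 1.65 and 0.642 CPM (log2 fold change 3.56 ± 0.23, adjusted p = 5.9e-11), *Pdgfb* at 10.1, 24.1, 12.6 and 22.7 CPM against 0.0757, 0.698, 0 and 0 CPM and *Pdgfc* at 59.5, 71.5, 66.1 and 48.1 CPM against 8.48, 15.97, 9.39 and 8.90 CPM. *Pdgfd* was stromal, at 73.6, 42.6, 59.6 and 49.4 CPM against 0.888, 1.51, 0.972 and 3.07 CPM, as were both receptors, *Pdgfra* and *Pdgfrb*, and the receptor-like *Pdgfrl*.

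Of 12 fibroblast growth factor genes, 3 were luminal and 5 stromal (18.7% and 22.5% of all genes were). *Fgf10* and *Fgf7*, which drive branching and signal through the epithelial form of FGFR2, were at 88.4, 109, 74.4 and 40.9 CPM and 64.1, 83.7, 68.9 and 52.8 CPM in stroma and at 0.127, 0, 0.114 and 0 CPM and 0, 0.201, 0.0572 and 0.0787 CPM in luminal cells. *Fgfr2* was luminal, at 303, 110.3, 471 and 79.8 CPM against 29.0, 48.4, 43.9 and 22.7 CPM (2.59 ± 0.60, adjusted p = 0.00162), high in mice 1 and 3 like the hormone-sensing genes, and not called without mouse 1 (adjusted p = 0.0186). *Fgfr3* was at 30.3, 24.98, 20.2 and 36.03 CPM against 1.67, 1.63, 1.10 and 2.48 CPM, while *Fgfr1* was higher in stroma at 1287, 1050.0, 1273 and 1683 CPM against 454, 535, 257 and 214 CPM (-1.85 ± 0.28, adjusted p = 1.99e-05). Counts per gene do not tell the splice forms of *Fgfr2* apart.

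Of 13 HGF and IGF genes, 9 were stromal and 2 luminal, with a median of -5.71. *Hgf*, a motility and branching signal, was at 90.1, 79.0, 97.9 and 113 CPM in stroma and 0.0634, 2.22, 0.286 and 0.157 CPM in luminal cells, the luminal library of mouse 2 standing out, and its receptor *Met* was at 399, 493, 329 and 427 CPM in luminal and 185, 130.3, 182 and 186 CPM in stromal cells (1.30 ± 0.18, adjusted p = 3e-06). *Igf1* was at 257, 238, 233 and 178 CPM against 0.697, 0.705, 0.457 and 0.629 CPM (-8.53 ± 0.36, adjusted p = 4.37e-13), while its receptor *Igf1r* was in both lineages, at 188, 280.4, 135 and 142 CPM and 145, 164, 142 and 136 CPM (adjusted p = 0.256, but 0.00798 with library size as the scale). The binding proteins *Igfbp3*, *Igfbp4* and *Igfbp6* were stromal, *Igfbp4* at 406, 523, 525 and 425 CPM against 1.71, 1.01, 1.26 and 2.91 CPM. *Igfbp5* was the luminal one, at 5184, 11816, 4873 and 5103 CPM against 2942, 2273, 2049 and 2088 CPM (1.52 ± 0.29, adjusted p = 0.000227).

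In the EGF family the receptors split. *Egfr* was at 1176, 1104, 1275 and 1253 CPM in stromal and 119, 171, 112 and 169 CPM in luminal libraries (-3.05 ± 0.32, adjusted p = 1.91e-07). *Erbb2*, *Erbb3* and *Erbb4* were luminal, *Erbb3* at 325, 390.0, 338 and 366 CPM against 1.29, 8.30, 2.38 and 1.65 CPM (6.91 ± 0.54, adjusted p = 7.86e-09) and *Erbb2* at 91.7, 101, 112 and 109 CPM against 25.5, 24.4, 20.7 and 16.1 CPM. Among the ligands, *Areg*, *Tgfa*, *Btc*, *Hbegf*, *Epgn* and *Nrg4* were luminal, *Tgfa* at 21.999, 16.5, 19.2 and 11.6 CPM against 0.909, 1.40, 1.71 and 1.10 CPM, and *Ereg* was stromal at 1.06, 2.79, 8.48 and 5.23 CPM against 0, 0.101, 0 and 0 CPM. Of the 14 genes, 9 were luminal and 2 stromal, with a median of 2.28.

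Of 36 Wnt ligands, receptors and regulators, 9 were luminal and 20 stromal, with a median of -2.34. The ligands divided: *Wnt5b* was at 111.4, 146, 114 and 173 CPM in luminal and 2.95, 2.79, 1.77 and 2.57 CPM in stromal cells, *Wnt7b* at 20.6, 20.04, 30.1 and 28.2 CPM against 0, 0.233, 0.122 and 0.0918 CPM (7.81 ± 0.90, adjusted p = 7.9e-07) and *Wnt4*, a target of progesterone, at 26.3, 4.33, 33.8 and 9.28 CPM against 1.89, 4.11, 0.488 and 0.184 CPM. *Wnt2* was stromal, at 48.9, 44.1, 49.6 and 28.8 CPM against 0.254, 0, 0.0572 and 0 CPM (-9.13 ± 0.65, adjusted p = 5.07e-09), and *Wnt16* had no luminal read and was at least 223-fold higher in stroma. *Lgr6*, an R-spondin receptor, was at 153, 188, 130.4 and 148 CPM against 0.0757, 0.620, 0.0610 and 0.551 CPM (8.97 ± 0.85, adjusted p = 9.16e-08), whereas *Lgr5* overlapped, at 4.82, 15.9, 2.34 and 0.708 CPM and 4.32, 37.1, 3.84 and 2.02 CPM. The secreted inhibitors *Sfrp1*, *Sfrp2*, *Sfrp4* and *Dkk2* were stromal, *Sfrp2* at 497, 374, 498 and 499 CPM against 10.1, 5.84, 4.74 and 9.67 CPM. Of the feedback genes that canonical Wnt signalling turns on, *Axin2* was stromal, at 49.2, 93.4, 41.5 and 46.7 CPM against 2.35, 0.806, 4.86 and 2.20 CPM (-4.47 ± 0.48, adjusted p = 2.62e-07), and *Rnf43* luminal, at 48.5, 51.5, 46.8 and 45.0 CPM against 0.379, 1.32, 0.244 and 0.184 CPM (6.50 ± 0.49, adjusted p = 1.2e-09).

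Of 33 TGF-β and BMP genes, 4 were luminal and 22 stromal, with a median of -2.57. The luminal ones were *Tgfb3*, at 235, 312, 265 and 315 CPM against 36.4, 42.0, 45.0 and 33.6 CPM (2.85 ± 0.24, adjusted p = 4.69e-09), *Inhbb*, an activin subunit, at 414, 632, 389 and 520.3 CPM against 14.8, 33.6, 16.5 and 17.4 CPM, and the latency proteins *Ltbp2* and *Ltbp3*. The type II receptor *Tgfbr2* was higher in stroma, at 690.2, 798, 855 and 641 CPM against 133, 110.1, 151 and 114 CPM (-2.57 ± 0.18, adjusted p = 3.07e-10), and the coreceptor *Tgfbr3* at 689, 804, 748 and 688 CPM against 41.3, 79.4, 26.1 and 32.2 CPM. The antagonists *Fst* and *Chrdl1* were stromal, *Fst* at 202, 285, 248 and 188 CPM against 0.507, 1.21, 1.94 and 0.472 CPM. The BMP receptor *Bmpr1a* was not called, at 130.5, 123, 122 and 116 CPM and 109.7, 109, 113 and 96.4 CPM (0.20 ± 0.10, adjusted p = 0.099, but 0.65 and 2.51e-06 with library size as the scale).

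Among 38 genes of other ligand and receptor pairs, 10 were luminal and 24 stromal, with a median of -2.27. *Kit* was luminal and its ligand *Kitl* was in both, at 186, 198, 203 and 238 CPM in stroma and 118, 107, 97.5 and 104 CPM in luminal cells (-0.95 ± 0.17, adjusted p = 7.98e-05). *Cxcl12* was stromal, at 219.8, 496, 259 and 301 CPM against 2.60, 3.73, 4.001 and 1.65 CPM, and its receptor *Cxcr4* luminal, at 16.4, 20.2, 12.1 and 18.7 CPM against 3.18, 2.56, 5.43 and 2.94 CPM (2.23 ± 0.34, adjusted p = 1.41e-05). The pair *Gas6* and *Axl* ran in the other direction: the ligand was luminal, at 314, 361, 382 and 415 CPM against 66.9, 155, 71.5 and 70.0 CPM (1.995 ± 0.40, adjusted p = 0.000443), and the receptor stromal, at 867, 887, 856 and 774 CPM against 4.50, 6.65, 3.71 and 3.07 CPM (-7.60 ± 0.32, adjusted p = 5.41e-13). *Slit2*, *Slit3*, *Robo1* and *Robo2* were all stromal, *Slit3* at 850.2, 1139.8, 866 and 827 CPM against 1.14, 0.906, 0.229 and 1.26 CPM. In the Notch family *Notch1* and *Notch3* were luminal, *Notch1* at 426, 548, 372 and 614 CPM against 105, 94.7, 104 and 106 CPM, while *Notch2* and the ligand *Jag1* were stromal, *Jag1* at 140.1, 112, 131 and 141 CPM against 14.6, 5.74, 18.2 and 9.67 CPM (-3.46 ± 0.22, adjusted p = 5.45e-11). *Il6* was at 175, 259, 302 and 163 CPM in stroma and 0.0634, 0.604, 0 and 4.25 CPM in luminal cells, and *Lif* higher in luminal cells, at 231, 247, 125 and 115 CPM against 42.3, 79.6, 68.2 and 51.0 CPM (1.58 ± 0.45, adjusted p = 0.00636). The call of *Lif* was lost without mouse 1, 2 or 4 (adjusted p = 0.0576, 0.0232 and 0.0205), and that of *Kitl* with library size as the scale (0.0128).

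**Figure D4:**
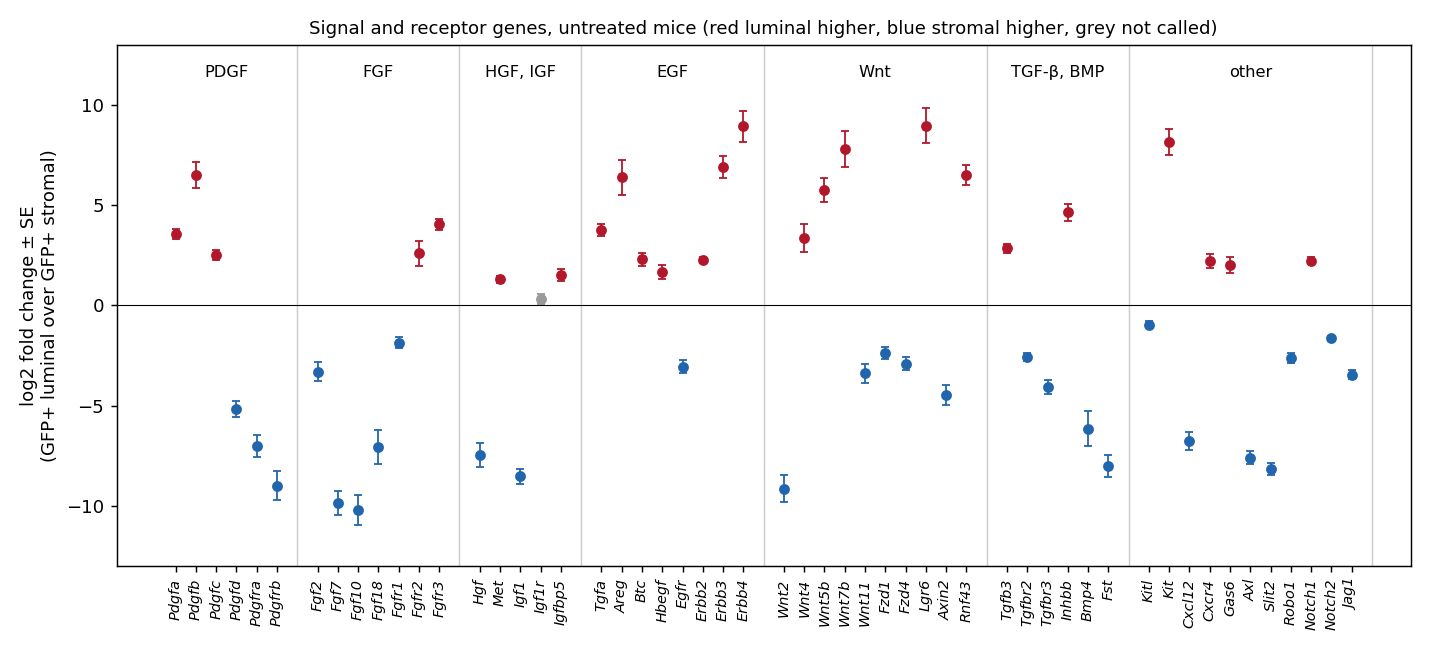
Log2 fold change ± SE, GFP+ luminal over GFP+ stromal cells of 4 untreated mice, for 53 signal and receptor genes in 7 families. Red points were higher in luminal and blue points in stromal cells at an adjusted p of 0.01, and the grey point, *Igf1r*, was not called. *Pdgfa*, *Pdgfb*, *Pdgfc* and FGF receptors 2 and 3 lie above 0, and *Pdgfd*, the PDGF receptors, *Fgf7* and *Fgf10* below it.

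Markers of other cells the gates could hold were measured as whole lists. Over all genes 18.7% were higher in luminal and 22.5% in stromal cells. Blood cell genes summed to 9.37 to 13.5 CPM in luminal and 5.73 to 9.09 CPM in stromal libraries, with a median of 0.24, and edgeR called 0 of 15, with 3 at an unadjusted p under 0.05, while DESeq2 called 3 and limma-voom 1. Endothelial genes summed to 7.65 to 23.4 and 201 to 281 CPM with a median of -0.83, and 1 of 13 (*Pecam1*) was higher in luminal and 3 in stromal cells. Most of the stromal sum was *Tek*, the angiopoietin receptor, at 244, 187, 153 and 177 CPM, while the defining *Cdh5* was at 1.89, 4.50, 0.183 and 2.39 CPM in the same libraries. The *Pecam1* call was lost without the mouse as a block (adjusted p = 0.0119), and without mouse 1, 3 or 4 (0.0847, 0.0106 and 0.103).

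Basal epithelial genes summed to 89.0 to 165 and 67.0 to 114 CPM, with 4 of 12 higher in luminal and 2 in stromal cells and a median of 0.85, and the defining keratins *Krt5* and *Krt14* reached no more than 1.10 and 6.45 CPM in luminal and 0.183 and 0.367 CPM in stromal libraries. Pericyte and smooth muscle genes summed to 181 to 252 and 180.2 to 327 CPM, with 3 of 12 luminal and 4 stromal and a median of -2.17 (-1.72 with *Higd1b* at its bound). For both lists the shares over all genes were 18.7% luminal and 22.5% stromal. Schwann cell genes summed to 225 to 339 and 33.1 to 43.7 CPM with a median of 1.502, and *Sox10*, *Mbp* and *Gfra3* were luminal and *S100b* stromal. Most of the luminal sum was *Sox10*, a factor of mammary epithelium too, at 155, 214, 133 and 224 CPM. Skeletal muscle genes summed to 1.65 to 2.32 CPM in 3 luminal libraries and to 41.8 CPM in that of mouse 4, against 12.02 to 15.4 CPM in stroma. Here edgeR called 0 of 12, with 0 at an unadjusted p under 0.05, DESeq2 called 1 and limma-voom 0, and the median of 2.42 turned to -1.79 without mouse 4. The part of such cells in the results above was not tested.

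Genes of the early stress response to tissue digestion summed to 6404 to 11657 CPM in luminal and 10286 to 16799.9 CPM in stromal libraries. Of 17, 1 was higher in luminal (*Ier3*) and 7 in stromal cells (18.7% and 22.5% of all genes were), with a median of -0.50. *Fos* was at 1087, 805, 662 and 831 CPM in luminal and 1021, 1289.9, 833 and 652 CPM in stromal libraries (adjusted p = 0.617), and *Egr1* higher in stroma, at 2059, 2374, 1652 and 1549 CPM against 719.9, 504, 569 and 671 CPM (-1.66 ± 0.25, adjusted p = 2e-05). Of 16 reference genes, 2 (*Ppia* and *Rplp0*) were higher in luminal and 3 in stromal cells, *B2m* and *Gusb* among them, with a median of 0.19. The call of *Rplp0* was lost without mouse 1, 3 or 4 (adjusted p = 0.0143, 0.0164 and 0.0495). *Actb* was at 2702, 2114, 1810.3 and 2408 CPM and 1729, 2164, 1976 and 1641 CPM (0.26 ± 0.17, adjusted p = 0.211, but 0.000574 with library size as the scale), and *B2m*, the light chain of MHC class I, was at 935, 952, 868 and 786 CPM in stroma against 209, 108, 181 and 204 CPM (-2.39 ± 0.19, adjusted p = 1.94e-09).

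For 1645 genes (8.41%) the 95% interval of the log2 fold change lay within -0.5 and 0.5 with TMM factors as the scale. Among those with the highest CPM, a value that is not corrected for gene length, were the translation factors *Eef1a1* and *Eef2*, the splicing protein *Srrm2*, *Prrc2c* and *Dst*. *Prrc2c* was at 1031, 1089.7, 998 and 1007 CPM in luminal and 1041, 977, 1007 and 996 CPM in stromal libraries (95% interval -0.12 to 0.19). With library size as the scale the log2 fold change was 0.68 for *Eef1a1*, 0.71 for *Eef2*, 0.75 for *Srrm2*, 0.67 for *Dst* and 0.48 for *Prrc2c*, and all 5 were called luminal. *Srrm2* was called luminal with TMM factors too, by a small margin (log2 fold change 0.31). That call was lost without mouse 2 or 3 (adjusted p = 0.0185 and 0.0365) and in a fit of the 8 libraries alone (0.0893).

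The genes with the largest differences at 10 CPM or more were mostly absent from the other lineage. On the luminal side *Gabrp*, a GABA-A receptor subunit, was at 23.6, 10.3, 23.5 and 42.9 CPM with no stromal read, at least 446-fold higher. *Tnnt2*, known as cardiac troponin T, was at 23.8, 24.3, 14.8 and 26.2 CPM, at least 396-fold higher. *Foxi1*, a forkhead factor of ion-transporting cells, was at 47.5, 35.6, 37.4 and 82.1 CPM with a read in 1 stromal library. *Lcn2*, an iron-trapping defence protein, was at 679.8, 1082, 525 and 632 CPM against 0.151, 2.40, 0 and 1.19 CPM (9.72 ± 0.88, adjusted p = 5.51e-08). *Slc13a2* was mainly in mouse 4, at 1.01, 2.92, 2.0004 and 38.2 CPM. *Snorc*, *Kcne3*, *C2cd4b* and *Proser2* were also among the 10.

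On the stromal side *Alx4*, a homeobox factor that mammary stroma needs for ductal growth, was at 38.2, 37.3, 55.6 and 37.6 CPM with no luminal read, at least 787-fold higher. *Akr1c18*, which inactivates progesterone, was at 71.0, 34.3, 41.2 and 26.3 CPM, at least 806-fold higher. *Fam171b* was at 38.7, 37.7, 47.2 and 36.1 CPM and *Xpnpep2*, a membrane aminopeptidase, at 32.3, 36.2, 27.4 and 24.0 CPM, both also without a luminal read. *Cntn1*, a neural adhesion protein, varied by mouse, at 8.10, 36.8, 79.7 and 9.27 CPM. *Smpd3*, a sphingomyelinase, was at 223, 170.2, 141 and 167 CPM against 0.127, 0.101, 0 and 0 CPM (-11.87 ± 1.13, adjusted p = 9.76e-08). The others were *Tspan11*, *Pcdh20* and the predicted genes *Gm19514* and *Gm33869*.

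Whether the lineage difference was the same in tdTomato+ cells, which lack the label, was tested as an interaction in the same fit. It differed for 4081 genes (20.9%), 2024 (10.3%) with a more luminal and 2057 (10.5%) with a more stromal difference in GFP+ cells. With library size as the scale these were 2516 and 1486, where the median over all genes moved from 0.06 to 0.24. Of the 8057 genes called in GFP+ cells, 5096 (63.2%) were called in the same direction in tdTomato+ cells, which is 53.7% of the 9490 genes called there (48.5% of all genes). The tdTomato+ stroma holds other cells: skeletal muscle genes summed to 2993 to 15036 and pericyte and smooth muscle genes to 7436 to 10709 CPM in it. In GFP+ stroma these sums were 12.02 to 15.4 and 180.2 to 327 CPM. The label and this difference in cell types cannot be told apart.

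Of 40 junction genes, 15 had a more luminal difference in GFP+ cells and 0 a less luminal one. Their summed CPM was similar in both luminal populations, 5213 to 6179.6 in GFP+ and 5204 to 5641 in tdTomato+ cells, and the ranges of tdTomato+ stroma, 386 to 719, and GFP+ stroma, 305 to 400.2, overlapped slightly. *Cdh1* was at 8.28, 36.6, 48.2 and 1.94 CPM in tdTomato+ stroma and 0.530, 8.92, 2.38 and 1.28 CPM in GFP+ stroma. Among collagens 1 of 19 differed each way. Their summed CPM nevertheless lay apart in the stromal populations, at 33535 to 69521 in GFP+ and 5253 to 9472 in tdTomato+ stroma. In luminal cells the sums were 177 to 284 (GFP+) and 152 to 363 CPM (tdTomato+). Of adipocyte progenitor genes 7 of 29 had a more stromal difference in GFP+ cells, among them *Ly6a* (interaction -6.13 ± 0.60, adjusted p = 7.99e-07), *Dpp4* falling short of the threshold (-3.29 ± 0.97, adjusted p = 0.0158), and 1 a more luminal one. Luminal progenitor genes had 8 of 29 more luminal in GFP+ cells, among them *Kit* (4.33 ± 0.71, adjusted p = 0.000176) and *Lcn2* (5.70 ± 1.00, adjusted p = 0.000316), and 0 the reverse. Over all genes these shares were 10.3% and 10.5%. *Lcn2* had means of 730 CPM in GFP+ and 130 CPM in tdTomato+ luminal cells. In stroma its means were 0.937 and 8.46 CPM, so that both lineages enter its interaction. Hormone-sensing genes had 0 more luminal and 2 less, *Cited1* and *Esr1* (-2.51 ± 0.38, adjusted p = 5.41e-05), whose mean was 281 CPM in tdTomato+ and 66.4 CPM in GFP+ luminal cells. The *Cited1* call was lost without the block (adjusted p = 0.0238) and without mouse 1, 2 or 4 (0.0243, 0.0779 and 0.0367), and *Dpp4* passed with DESeq2 and limma-voom (0.00581 and 0.00548).

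The genes with the largest interactions at 10 CPM or more in GFP+ cells included muscle genes. *Acta2*, smooth muscle actin, was at 1121, 658, 573 and 251 CPM in tdTomato+ stroma against 4.17, 12.1, 20.1 and 6.70 CPM in GFP+ stroma (interaction 7.99 ± 0.82, adjusted p = 1.6e-06). *Ttn* (titin), *Nrarp* and *Sox6* were also high in tdTomato+ stroma, at means of 3587, 46.3 and 58.3 CPM, against 9.24, 0.203 and 0.359 CPM in GFP+ stroma. *Tnnt2* had 0 reads in GFP+ stroma and a mean of 3.09 CPM in tdTomato+ stroma. In the negative direction *Il1rl1*, the IL-33 receptor, was at 593, 283, 883 and 532 CPM in GFP+ and 32.1, 1.72, 57.6 and 4.57 CPM in tdTomato+ stroma (-6.78 ± 1.21, adjusted p = 0.000367), and *Hc*, complement C5, at 277, 202, 392 and 406 CPM and 1.998, 5.60, 42.7 and 2.92 CPM (-7.95 ± 1.16, adjusted p = 5.76e-05). *Crabp1*, *Adora2b* and *Lrrc15* were likewise higher in GFP+ stroma. The interaction of *Crabp1* was not called without mouse 1, 2 or 4 (adjusted p = 0.0704, 0.0152 and 0.0445), nor that of *Lrrc15* without mouse 1 or 3 (0.0105 and 0.0162).

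**Figure D5:**
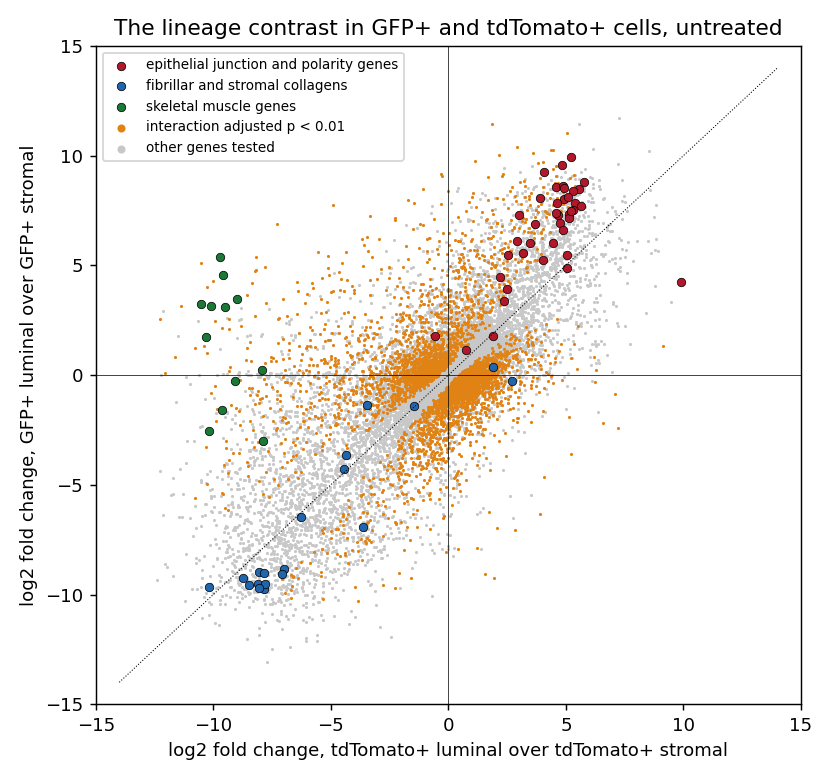
Each point is 1 of 19569 genes, with its log2 fold change of luminal over stromal cells in tdTomato+ cells on the horizontal axis and in GFP+ cells on the vertical axis, 4 untreated mice. Orange points differ between the labels at an adjusted p of 0.01, the dotted line marks equal values, and 3 lists are outlined. Junction genes sit in the upper right, collagens in the lower left, and skeletal muscle genes far to the left, where tdTomato+ stroma is high.

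The lineage difference of GFP+ cells was next compared with that in the 3 mice given E+P, with which it shares no library. Of the 8057 genes called in untreated mice, 6244 (77.5%) were called in the same direction with E+P, 79.6% of the 7846 called there (40.1% of all genes). The difference itself changed for 208 genes (1.06%), 104 in each direction (0.531%), a number that fell to 64 without mouse 1 and to 24, 28 and 37 without 1 of the E+P mice. With library size as the scale the directions were 74 and 161. Of the lists, the cell proliferation list held 4 of 21 such genes, *Mcm3*, *Mcm4*, *Mcm5* and *Mcm6*, all more luminal with E+P and all subunits of the helicase that opens DNA for replication. *Mcm3* was at 7.23, 9.47, 21.7 and 15.4 CPM in luminal and 11.6, 13.5, 14.5 and 11.9 CPM in stromal libraries of untreated mice, with no call (adjusted p = 0.917), and at means of 72.2 and 8.76 CPM with E+P (interaction 3.04 ± 0.34, adjusted p = 4.26e-05). The *Mcm3* interaction was called without each of the 7 mice in turn, while those of *Mcm4*, *Mcm5* and *Mcm6* were lost without any 1 of the E+P mice, at adjusted p values between 0.0134 and 0.0445, and that of *Mcm5* without the block (0.106).

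*Dst* was at 481, 522 and 487 CPM in luminal and 1329.8, 1203 and 1304 CPM in stromal libraries of the 3 E+P mice (interaction -1.59 ± 0.15, adjusted p = 6.46e-06), and *Agrn* moved the same way (-1.40 ± 0.22, adjusted p = 0.00164). *Ror2*, a Wnt5a receptor, was at 0.0680, 0 and 0 CPM in luminal and 58.4, 72.8 and 53.4 CPM in stromal E+P libraries, against 2.60, 1.01, 5.94 and 0.865 CPM and 24.5, 41.9, 38.7 and 27.7 CPM untreated (-7.49 ± 0.93, adjusted p = 0.000204). *Ror2*, *Kif5c*, *Ccdc162*, *Lrrn2* and *Nckap5* were the 5 called protein-coding genes with the largest shift towards stroma, at 10 CPM or more in untreated GFP+ cells. *Kif5c* and *Ccdc162* were high in untreated luminal libraries of mice 1 and 3, *Kif5c* at 68.5, 23.6, 211 and 17.8 CPM, and at 6.53, 4.85 and 2.33 CPM with E+P. In the other direction *Tnfrsf19*, a TNF receptor family member, was at 0.190, 0.302, 0.457 and 0.0787 CPM in untreated and 7.01, 4.63 and 4.87 CPM in E+P luminal libraries (5.94 ± 0.82, adjusted p = 0.000531), and *Pcsk6*, a proprotein convertase, at 1.33, 0.504, 2.80 and 0.865 CPM and 25.8, 21.8 and 17.2 CPM (5.76 ± 0.69, adjusted p = 0.000226). *C1qtnf1*, *Enox1* and *Nrep* completed the 5 with the largest shift towards luminal cells by the same rule. The calls of *Dst*, *Ror2* and *Pcsk6* held without each of the 7 mice in turn. That of *Tnfrsf19* was lost without 1 E+P mouse (adjusted p = 0.0121), and those of *Agrn* and of the other 7 genes without at least 2 of the 7 mice. Without the mouse as a block *Kif5c*, *Lrrn2* and *Nrep* missed the threshold (0.026, 0.0199 and 0.0169).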

How the data were processed

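RNA of sorted mammary cells was sequenced by the authors as stranded total RNA libraries, aligned with STAR 2.5.2a to GRCm38.p5 (submitters' processing notes), and deposited as raw counts per Ensembl gene. The counter, the GENCODE release and the strand setting are not given in the sources used here. GENCODE M21 gave symbols and positions for 50376 of 50600 gene IDs. The sample names give 7 mice as the source of the 28 libraries, so replicates are separate animals.

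Genes were filtered with filterByExpr, scaled with TMM and tested with edgeR 4.0.16 (quasi-likelihood, robust; R 4.3.3) over all 28 libraries in 8 groups with the mouse as a block, since libraries of 1 animal are paired. Same-mouse deviations from the lineage mean correlated weakly, at 0.0321 to 0.0974. The mean between mice, -0.0238, is no separate measure, since the deviations of a lineage cancel over its mice. p values were adjusted by Benjamini-Hochberg over 19569 genes and 0.01 was the threshold, as in the study. CPM values are TMM-scaled counts, not corrected for gene length. On simulated counts for the lineage comparison, 75% of genes changed 4-fold and 36% of those changed 2-fold were called, among 200 changed genes of 19569, and 0 unchanged genes were.

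The 30 gene lists and the members were chosen with earlier results of these data known. Beside list members, the text names the 10 genes in each direction with the largest difference (adjusted p under 0.01, at least 10 CPM in the higher group, same side in 4 of 4 mice), the 5 protein-coding genes in each direction of each interaction, and those with the highest CPM whose 95% interval lay within -0.5 and 0.5. Alternatives were no block, DESeq2 1.42.0 size factors or test, library size, limma-voom (limma 3.58.1), no filter, an adjusted p of 0.05, fewer libraries in the fit, and leaving out each mouse. A few genes are not reported here.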

Additional observations from a re-analysis of the deposited data

Results flagged for a closer look

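A library was counted as standing apart where its gap to the nearest of the other 3 was beyond Dixon's 95% critical value for 4 samples, taken over the range of its group, for named genes that averaged 10 CPM or more over the 4 libraries and for the summed CPM of each of 30 lists. Chance gives about 1 in 20 groups. Among luminal libraries this held for 11 of 148 genes, 6 of them in mouse 4, and among stromal libraries for 15 of 159 genes, 11 of them in mouse 2.

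In the luminal library of mouse 4 the genes standing apart were *Muc4* at 1268 CPM, *Csn1s1* at 138.4 CPM, *Csn2* at 84.3 CPM, *Hspg2* at 81.3 CPM, *Foxc1* at 77.9 CPM and *Slc13a2* at 38.2 CPM, all high. This library also stood apart in the summed skeletal muscle genes, at 41.9 CPM. In that of mouse 2 *Igfbp5* was high at 11816.5 CPM, and with it the summed HGF and IGF genes at 12840.0 CPM, and *Klf5* at 179 CPM. *Col1a1* was high in mouse 1 at 24.3 CPM, and *Lamc1* and *Lsr* in mouse 3 at 85.2 and 69.0 CPM.

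In the stromal library of mouse 2 *Axin2* was at 93.4 CPM, *Dkk2* at 47.8 CPM, *Lgr5* at 37.1 CPM, *Gas6* at 155 CPM, *Hoxc8* at 30.7 CPM, *Inhbb* at 33.6 CPM, *Pdgfc* at 15.97 CPM and *Slit3* at 1139.8 CPM, all high, while *Met* at 130.3 CPM, *Notch1* at 94.7 CPM and *Sfrp2* at 374 CPM were low. The summed adipocyte progenitor genes were high there too, at 39160.0 CPM. In the stroma of mouse 3 *Alx4* at 55.6 CPM and *Itga9* at 50.7 CPM were high, and in that of mouse 1 *Twist1* at 58.5 CPM and *Enox1* at 13.8 CPM were low. What sets these libraries apart was not tested.

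The lineage difference itself differed between GFP+ and tdTomato+ cells, by the interaction test in edgeR's quasi-likelihood fit, for 4081 genes. On the log2 scale the interaction was 9.94 for *Ttn*, 9.60 for *Tnnt2*, 9.501 for *Nrarp*, 9.34 for *Sox6* and 7.99 for *Acta2*, and -7.95 for *Hc*, -7.95 for *Crabp1*, -6.89 for *Adora2b*, -6.78 for *Il1rl1* and -6.47 for *Lrrc15*. *Tnnt2* had no read in GFP+ stroma, so that its value is no measured size. Between mice given E+P and untreated mice it differed for 208 genes. The interaction was 5.94 for *Tnfrsf19*, 5.76 for *Pcsk6*, 3.82 for *C1qtnf1*, 3.29 for *Enox1* and 3.18 for *Nrep*, and -7.49 for *Ror2*, -5.38 for *Kif5c*, -4.72 for *Ccdc162*, -4.41 for *Lrrn2* and -4.18 for *Nckap5*.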

How the results depend on the processing

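The 8057 lineage calls kept their direction in every alternative that also called them. The number called ran from 6598 to 10173, and without the mouse as a replicate block it was 8082, of which 7737 were shared. Without the block the label interaction was called for 2032 genes in the positive and 1944 in the negative direction and the E+P interaction for 180 genes, and beside the genes given above *Csn1s2a* lost its call (adjusted p = 0.109). The call of *Csn1s2a* was also lost with DESeq2 and with limma-voom (adjusted p = 0.668 and 0.0571). The count of genes whose difference changed with E+P, 208, moved most: it was 705 with DESeq2, 768 at an adjusted p of 0.05, and between 24 and 248 without 1 mouse. Signs of named genes turned only where there was no call. With library size as the scale *Cebpb* was at 0.20, *Col8a2* at 0.17, *Fos* at 0.28, *Hoxb2* at 0.37, *Hoxb3* at 0.19, *Hoxb4* at 0.16, *Mcm3* at 0.41, *Mcm4* at 0.32 and *Pcna* at 0.16. *Mcm3* was also at 0.065 without the block, 0.057 with limma-voom and 0.036 without the filter on low counts, and *Csn2* at -0.093 with DESeq2. Without 1 mouse the log2 fold change ran for *Cdh5* from -1.002 to 0.10, *Cebpd* from -0.11 to 0.13, *Col8a2* from -0.46 to 0.028, *Csn2* from -1.71 to 7.66, *Fos* from -0.35 to 0.0496, *Hoxb2* from -0.21 to 0.19, *Mcm3* from -0.26 to 0.16, *Mcm4* from -0.36 to 0.039, *Prrc2c* from -0.0038 to 0.063 and *Ptprc* from -1.25 to 2.99. The cause was not tested. Depth limited the genes at 0 in a lineage: 3 reads over its 4 libraries are 0.0537 CPM in luminal and 0.0562 CPM in stromal cells.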
